A study of Mus musculus with 2 samples.

Results

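The spots described here are the mast-cell-rich spots of a section of mouse calvaria, the vault of the skull. They were selected on measured values, among the spots of the Blank section that held at least 3667 unique molecular identifiers (UMIs, each standing for 1 captured RNA molecule). These spots were ranked by the share of their UMIs that came from Mcpt4, Cma1, Tpsb2 and Cpa3, and the top 120 were taken. They are 120 of 2249 kept Blank spots and of 4720 kept spots in both sections, and they are compared with the other 2129 kept Blank spots. The study holds 2 frozen sections read on a spatially barcoded array, 1 from a bone defect left without collagen/nHA material (Blank) and 1 from a defect that received it (Col_nHA), both harvested after 7 days. The labels give no strain, age or number of animals. They name calvarial bone as the tissue of both sections, and their extraction text speaks of a droplet single-cell kit, although the samples are described as spatial. Each group is 1 section, so nothing here has a replicate check and no p-values were computed. The ranges in parentheses are exact 95% intervals of the counts, and counting error is all they cover.

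Mast cells are long-lived immune cells that settle in connective tissue, beside vessels and nerves, in skin, fat, muscle sheaths and meninges. They store proteases, heparin-like glycans and histamine in granules and release them when IgE receptors or the receptors for basic peptides are engaged. Stem cell factor, made by stromal cells and read by the receptor KIT, keeps them alive. In mice, connective tissue mast cells carry chymases, tryptases and carboxypeptidase A3 together, while mucosal mast cells carry another set of chymases.

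The ranking used one gene of each granule protease class and a second chymase. Mcpt4 (ENSMUSG00000061068), the mouse chymase with activity closest to that of the human enzyme, lies on chromosome 14 at 56059744 to 56062310 in GRCm38.p6. Cma1 (ENSMUSG00000022225), a protease of the same cluster also called mast cell protease 5, lies on chromosome 14 at 55941451 to 55944675. Tpsb2 (ENSMUSG00000033825), a tryptase, lies on chromosome 17 at 25366308 to 25368096, and Cpa3 (ENSMUSG00000001865), carboxypeptidase A3, on chromosome 3 at 20215616 to 20242209. The protease genes of each cluster resemble one another, and the assignment of reads that fit several of them was not examined. The promoters of 3 of the 4 genes that chose the spots were in the RefSeq table of this build, and they are printed here because GATA factors, among them GATA2, are known regulators of mast cell genes. The bases run 5′ to 3′ on the minus strand, which all 3 genes use, and end next to the start site for Mcpt4 (chr14:56062311-56062560) and Cma1 (chr14:55944676-55944925). For Cpa3 (chr3:20242210-20242431) the bases inside the annotated gene were left off. Capitals mark matches, on either strand, to the GATA letters AGATAA, to TGATAA with another first base, to AGATAG with another last base, or to TGATAG with both changed.
Mcpt4: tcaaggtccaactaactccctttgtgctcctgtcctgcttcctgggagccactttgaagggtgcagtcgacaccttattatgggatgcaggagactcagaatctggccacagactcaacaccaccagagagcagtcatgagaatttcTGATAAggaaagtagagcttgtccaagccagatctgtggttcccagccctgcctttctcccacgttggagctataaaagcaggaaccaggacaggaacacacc
Cma1: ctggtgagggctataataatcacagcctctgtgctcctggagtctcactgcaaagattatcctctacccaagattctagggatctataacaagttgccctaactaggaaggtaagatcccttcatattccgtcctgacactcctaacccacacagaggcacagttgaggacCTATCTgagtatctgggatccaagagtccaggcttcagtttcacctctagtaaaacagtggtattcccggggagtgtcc
Cpa3: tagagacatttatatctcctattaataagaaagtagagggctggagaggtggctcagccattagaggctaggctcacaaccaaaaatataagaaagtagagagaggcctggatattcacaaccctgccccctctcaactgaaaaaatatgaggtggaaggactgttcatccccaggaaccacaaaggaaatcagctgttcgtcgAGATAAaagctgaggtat
Each of the 3 sequences held 1 match, at bases -103 to -98 for Mcpt4, -79 to -74 for Cma1 and -46 to -41 for Cpa3, counted back from the start site. For Cpa3 that start site lies inside the annotated gene, and the count includes the bases left off the printed sequence. Of 32851 windows of 250 bases before a start site, 26.5% held at least 1 match, so a match is common and is no evidence of binding.

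The 120 spots held 3 to 64 UMIs of the 4 genes, with a median of 13.5. As a share of the spot's UMIs, scaled to CPM, that was 762 to 4973 CPM with a median of 1108. The choice was made on these values, so they carry no test. The step at the limit was small, since the spot at rank 120 stood at 762.04 CPM (11 of 14435 UMIs) and the spot at rank 121 at 760.13 CPM (7 of 9209 UMIs). Mast cell transcripts therefore did not end at the limit, and 749 of the 2129 remaining spots (35.2%) held at least 1 UMI of the 4 genes. The 120 spots held 50.4% of all UMIs of the 4 genes in the kept spots.

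**Figure D1:**
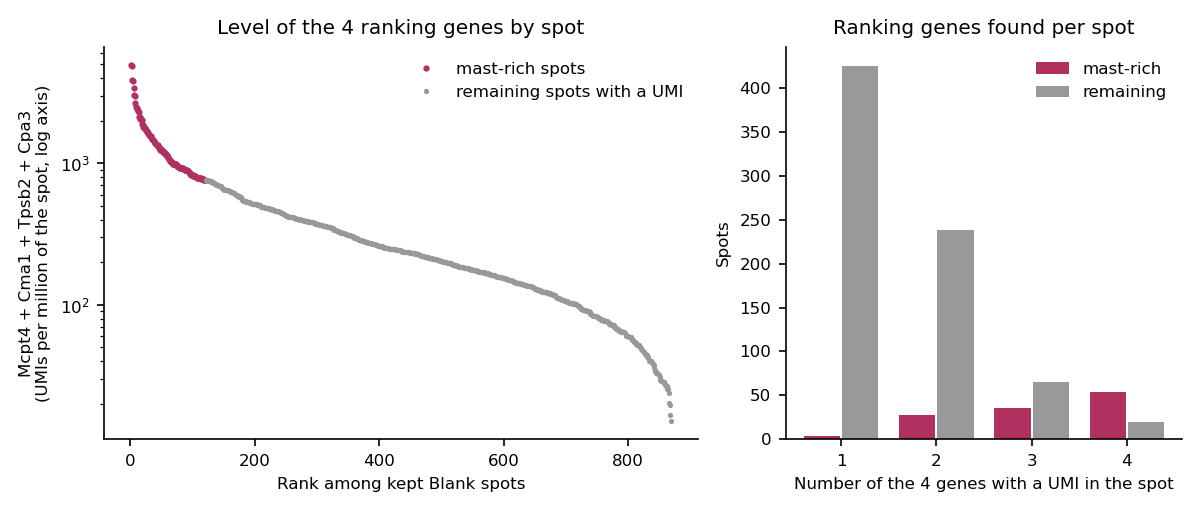
Left, CPM of the 4 ranking genes (log axis) by rank, for the 869 kept Blank spots with a UMI. Right, number of spots (bars from 0) by how many of the 4 genes had a UMI. The level falls without a gap at rank 120, and 54 of the 120 mast-rich spots held all 4 genes against 19 of the remaining spots.

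All 4 genes were found in 54 of the spots, 3 of them in 35, 2 in 28 and 1 in 3. Mcpt4 had a UMI in each of the 120 spots, with 1 to 27 UMIs per spot and a median of 7. Cma1 was found in 108 spots with a median of 5 UMIs and a highest value of 38. Tpsb2 and Cpa3 were sparser, with UMIs in 75 and 77 spots, and their highest values were 19 and 5 UMIs. Mcpt4 was the most abundant of the 4 in 71 spots, Cma1 in 26, Tpsb2 in 3 and Cpa3 in 1, and 19 were tied. Over the 120 spots, the rank correlation of CPM was 0.19 between Mcpt4 and Cma1 and 0.0011 between Mcpt4 and Cpa3, which is a description of sparse counts that share a library and that the choice of spots itself bent.

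Each of the 4 genes was also measured in spots ranked on the other 3 genes alone, so that the gene measured did not choose the spots. Ranked without itself, Mcpt4 stood at 555 CPM in the top 120 spots and 33.3 CPM in the rest, a ratio of 16.7 (15.1 to 18.4). Measured in this way, Cma1 was 18.2-fold higher (16.3 to 20.3), Tpsb2 16.8-fold (14.0 to 20.2) and Cpa3 15.1-fold (12.1 to 18.9). Chymases, tryptase and carboxypeptidase transcripts thus lay in the same spots also where they had no part in the choice. After thinning every spot to 2000 UMIs, Mcpt4 was found in 72.5% of the mast-rich spots (63.6 to 80.3) and in 7.09% of the remaining spots (6.04 to 8.27), against 100% and 20.9% without thinning. As a background, Mcpt4 was found in 0.833% of 120 spots rich in choroid plexus genes, a tissue in which the gene should be nearly absent. The median depth was 10422 UMIs in the mast-rich spots, 9645 in the remaining spots and 7772 in the choroid plexus spots.

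Other mast cell genes, none of them used in the ranking, were next compared between the 120 spots and the remaining spots. A gene was called higher or lower where its CPM, from UMIs summed over each set of spots, differed at least 2-fold and reached 20 CPM in one or both sets. Of 7754 genes that reached 20 CPM, 547 were called higher (7.05%) and 186 lower (2.4%). With TMM scaling, which centres the bulk of genes, the counts were 363 and 282. Of 42 other mast cell genes on 4 lists (granule, receptors, transcription factors, eicosanoid enzymes), 16 reached 20 CPM, and 2 were called higher and 0 lower. The mast cell genes thus mostly lay below the level at which a call was made, and the values below that level are given as counts and ratios with their intervals.

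Among granule genes, the tryptase gene Tpsab1, listed by RefSeq as a transcribed pseudogene on this assembly, had 18 UMIs in 11 of the spots, and its ratio was 26.0 (12.4 to 55.4). The membrane-bound tryptase gene Tpsg1 had 14 UMIs and a ratio of 13.2 (6.28 to 26.7). Slc18a2, the vesicle transporter that loads monoamines such as histamine and serotonin, had 8 UMIs and a ratio of 14.4 (5.12 to 38.4). These low counts all lay on the side of the mast-rich spots. Hdc, the enzyme that makes histamine, had 22 UMIs and a ratio of 3.91 (2.36 to 6.19). Serpinb1a, an inhibitor of neutrophil-type serine proteases, was called higher at 89.3 against 38.7 CPM, a ratio of 2.31 (1.90 to 2.78). Srgn, the serglycin core protein that packs proteases in granules of many blood cells, had a ratio of 1.43 (1.24 to 1.63). Summed over the whole granule list the ratio was only 1.30 (1.20 to 1.41), with 1 of 4 measured genes called higher and 0 lower. The proteases of mucosal mast cells were nearly missing, since Mcpt1 and Mcpt9 had 0 UMIs in the 120 spots and Mcpt2 had 1. A count of 0 allows up to 3 UMIs of the 1354587 in these spots.

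Among receptors, Mrgprb2, the mouse receptor for basic peptides and many drugs on mast cells, had 15 UMIs and a ratio of 15.5 (7.42 to 31.5). Its neighbour Mrgprb1 was called higher at 27.3 against 1.81 CPM, a ratio of 15.1 (9.66 to 23.5), with 37 UMIs spread over 34 spots. Fcer1a, the IgE-binding chain of the high-affinity IgE receptor, had 10 UMIs and a ratio of 14.4 (5.80 to 34.4), and Ms4a2, its beta chain, had 5 UMIs and a ratio of 4.71 (1.40 to 12.7). Fcer1g, the gamma chain that macrophages also use, stood at 320 CPM in both sets, a ratio of 0.997 (0.904 to 1.10). Kit, the stem cell factor receptor, had 25 UMIs in 23 spots and a ratio of 2.56 (1.62 to 3.88). Kit is also made by cells other than mast cells, and after thinning it was found in 2.5% of the mast-rich, 1.55% of the remaining and 0.833% of the choroid plexus spots, which is near background. The prostaglandin E receptor gene Ptger3 had 22 UMIs and a ratio of 3.75 (2.27 to 5.93). Summed over the whole receptor list the ratio was 1.29 (1.19 to 1.39), with 1 of 4 measured genes called higher and 0 lower.

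Among transcription factors, Gata2 had 24 UMIs and a ratio of 3.74 (2.32 to 5.80), and Mitf, which mast cells share with pigment cells and osteoclasts, had 40 UMIs and a ratio of 1.49 (1.06 to 2.06). The STAT5 genes, which pass on cytokine signals in many cells, had ratios of 1.87 for Stat5a and 1.82 for Stat5b. The eicosanoid genes did not follow this. The summed level of the 8 genes of that list was 271 CPM in the mast-rich and 272 CPM in the remaining spots, a ratio of 0.997 (0.895 to 1.11). Alox5ap, which hands arachidonic acid to 5-lipoxygenase, had a ratio of 1.0 (0.838 to 1.18) and Hpgds, the prostaglandin D synthase of mast cells, one of 1.28 (0.811 to 1.93). Macrophages also make most of these enzymes.

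**Figure D2:**
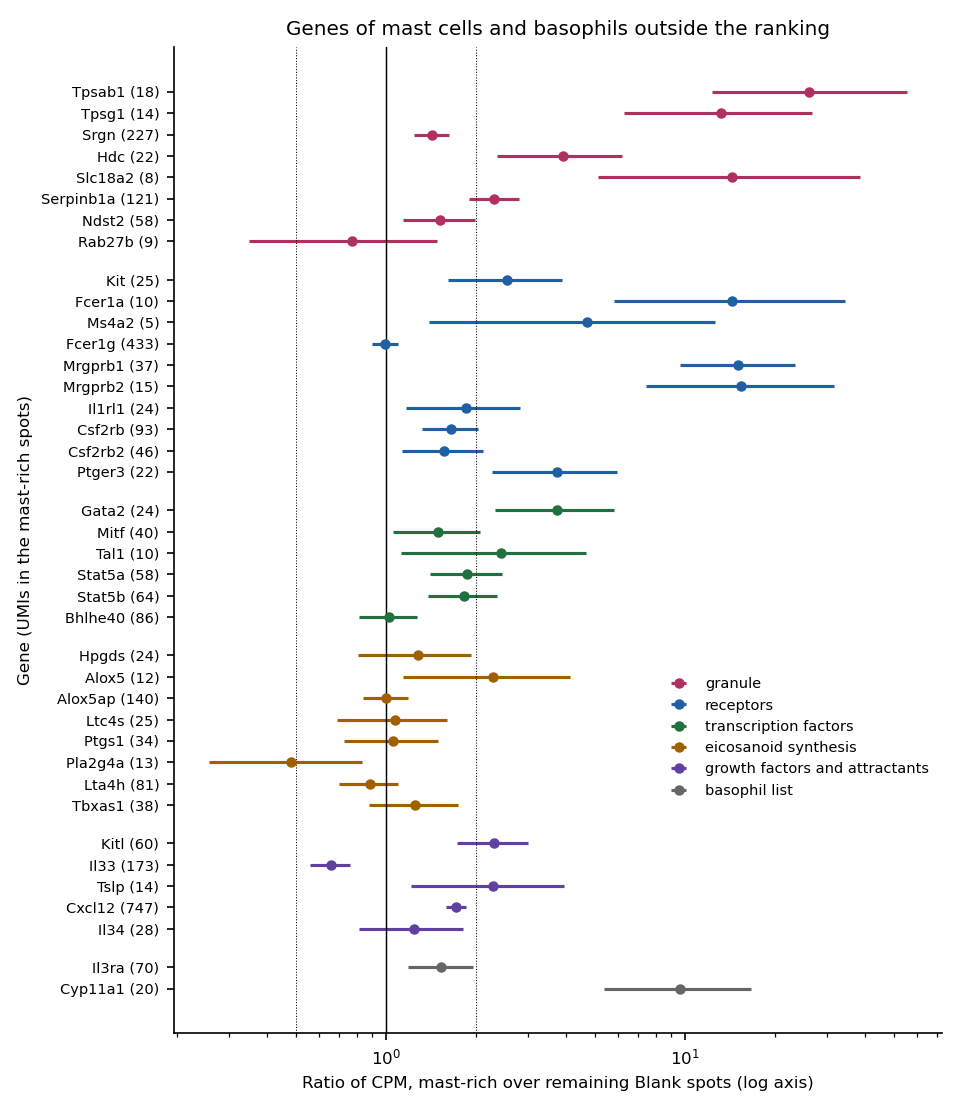
Ratio of CPM between the mast-rich and the remaining Blank spots (log axis) for mast cell and basophil genes outside the ranking reported here, with at least 5 UMIs in the mast-rich spots. Bars are exact 95% counting intervals, dotted lines mark 2-fold, and the number beside each gene is its UMIs. The tryptase genes Tpsab1 and Tpsg1, the Mrgprb receptors, Fcer1a and Slc18a2 lie furthest right, with ratios of 13.2 to 26.0, and eicosanoid genes lie around 1.

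Basophils share several of these genes. Their protease gene Mcpt8 had 1 UMI in the 120 spots and 21 in the remaining spots, a ratio of 1.03 (0.0250 to 6.42), and Prss34 had 1 UMI. Cyp11a1, a steroid-forming enzyme placed on the basophil list and reported in mast cells as well, had 20 UMIs and a ratio of 9.63 (5.39 to 16.7). The defining basophil proteases were thus near 0 in these spots. The list of eosinophil and type 2 inflammation genes had 92 UMIs and a summed ratio of 2.06 (1.64 to 2.55), with its 1 measured gene called higher, while 6 of its 11 genes, among them the eosinophil genes Epx, Prg2 and Siglecf, had 0 UMIs there.

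Factors that feed or attract mast cells differed from gene to gene. Kitl, the stem cell factor gene, was called higher at 44.3 against 19.3 CPM, a ratio of 2.30 (1.73 to 3.0). After thinning it was found in 5.83% of the mast-rich, 4.74% of the remaining and 3.33% of the choroid plexus spots, with counting intervals that overlap. Cxcl12, a chemokine of stromal cells, stood at a median of 424 CPM per spot in the mast-rich and 217 in the remaining spots, and its summed ratio was 1.72 (1.59 to 1.85). Il33, an alarm cytokine that activates mast cells, went the other way, at 128 against 195 CPM, a ratio of 0.655 (0.560 to 0.762). Il3 and Il9 had 0 UMIs in these spots. Of cytokines that mast cells can release, Il4, Il13 and Csf2 had 0 UMIs and Tnf had 4, while Ccl7, a monocyte attractant of many cells, was called higher with a ratio of 2.20 (1.90 to 2.54).

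The tissue that surrounds the mast cell transcripts was read from 35 lists of genes of other cells, tissues and cell states. A list was taken as higher where its summed CPM was at least 1.5-fold higher, and this held for 16 of the 35 lists. The count was 14 with TMM scaling and 12 against remaining spots of like depth. Over all 7754 genes the log2 ratio had a median of 0.16, so a list at that level is not set apart. A spot can hold several cells, and from such sums fewer cells of a type and less RNA per cell cannot be told apart.

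Of the lists that were higher, fat stood furthest from the remaining spots. The 12 adipocyte genes summed to 140 to 25286 CPM per mast-rich spot with a median of 2129, against a median of 464 in the remaining spots. Their summed ratio was 5.67 (5.51 to 5.84), 9 of 10 measured genes were called higher and 0 lower, and their median log2 ratio was 3.10. The level varied by more than 100 times between mast-rich spots, and 62 of the 120 lay above the 90th percentile of the remaining spots. Retn, the adipocyte hormone resistin, had a ratio of 12.4 (10.4 to 14.7) and was found in 56 spots. Cfd, the complement factor D gene known as adipsin, stood at 1727 against 167 CPM, a ratio of 10.3 (9.82 to 10.8), with a median of 670 CPM per mast-rich spot and 0 per remaining spot. The lipid droplet genes Plin4, Cidec and Plin1 and the hormone gene Adipoq had ratios of 9.38, 8.96, 8.26 and 9.33. Hp, haptoglobin, an acute-phase protein that fat also makes, had a ratio of 9.93 (9.40 to 10.5).

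Skeletal muscle genes came next, with a summed ratio of 2.91 (2.87 to 2.95) and all 12 genes called higher. The sum ranged from 145 to 109054 CPM per mast-rich spot with a median of 8117, against 852 in the remaining spots. Acta1, skeletal actin, had a ratio of 2.97 (2.90 to 3.04), and its median per spot was 2567 against 264 CPM. Of skin lists, sebaceous gland genes had a ratio of 2.24 and epidermis genes one of 2.04, led by Krt15, a keratin of the basal layer and the follicle bulge, at 3.85 (3.56 to 4.16). The median per spot of the epidermis list was 1785 against 428 CPM.

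Macrophage genes split. The list of resident and alternatively activated macrophages had a ratio of 2.56 (2.48 to 2.64), with 7 of 10 measured genes higher and 0 lower. Per spot the list stood at 256 to 8823 CPM with a median of 2688, against 1051 in the remaining spots, and 60 mast-rich spots lay above the 90th percentile of the remaining spots. Cd163, a receptor for haemoglobin bound to haptoglobin, and Clec10a, a lectin of macrophages and dendritic cells, had ratios of 4.97 and 4.91. Ccl8, a chemokine of resident macrophages in skin, stood at 1375 against 335 CPM, a ratio of 4.10 (3.90 to 4.31). Retnla had a ratio of 6.58, but 1 spot held 45.3% of its UMIs and the ratio was 3.69 without that spot. The list of lipid-associated macrophages, which clear lipid and debris, lay lower. It had a ratio of 0.579 (0.562 to 0.596), with 0 of 9 measured genes higher and 3 lower, and Spp1, osteopontin, stood at 271 against 1537 CPM, a ratio of 0.176 (0.159 to 0.195).

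Antigen-presenting and lymphoid genes lay higher. All 6 measured genes of MHC class II and dendritic cells were called higher, with a summed ratio of 2.70 (2.63 to 2.77). Cd74, the invariant chain, had a median of 1173 CPM per mast-rich spot and 373 per remaining spot. Cd209a, a lectin of dendritic cells derived from monocytes, had a ratio of 4.69 (3.52 to 6.16). The list of T cells, NK cells and innate lymphoid cells had a ratio of 2.36 (2.21 to 2.51), but 918 of its 1118 UMIs were Thy1, which fibroblasts and nerves also make. Cd4 had a ratio of 4.60 (3.02 to 6.82) from 31 UMIs and Trbc2, a constant chain of the T cell receptor, one of 2.86 from 45 UMIs, while Cd8a had 0.

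Fibroblast, vessel and nerve genes were higher in part. Of the adventitial and universal fibroblast genes 6 of 15 were called higher and 0 lower, with a summed ratio of 2.03 (1.99 to 2.06). Ly6a, a marker of fibroblast progenitors that endothelium shares, had a median of 1900 CPM per mast-rich spot and 458 per remaining spot, and a summed ratio of 3.16 (3.04 to 3.29). C4b, a complement component, had a ratio of 4.76 (4.50 to 5.03) and Cxcl14, a chemokine of skin and fibroblasts, one of 4.99 (4.46 to 5.56). Vessel endothelium genes had a ratio of 1.63, and Ackr1 and Selp, which mark venules, had ratios of 3.88 and 3.29. Lymphatic genes had a ratio of 1.95. The nerve list had a ratio of 2.15.

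Bone and wound genes lay lower. The osteoblast and osteocyte list had a ratio of 0.335 (0.306 to 0.367), and its 5 measured genes were all called lower. Its median per spot was 43.7 CPM in the mast-rich and 169 in the remaining spots, and the ratio was 0.226 without the 1 spot that held 33.5% of its UMIs. Within tissue settings, taken as spots above the 90th percentile of the remaining spots by fat, muscle or skin genes, the list lay nearer to 1, at 0.816 (0.698 to 0.952) in fat-rich, 0.631 (0.388 to 0.980) in muscle-rich and 0.728 (0.453 to 1.12) in skin-rich spots. In the fat-rich spots it was 0.464 (0.377 to 0.566) without the 1 spot that held 46.2% of its UMIs there. Mmp9 and Mmp13, proteases of osteoclasts and of healing bone, had ratios of 0.124 (0.0897 to 0.167) and 0.154 (0.118 to 0.198). The osteoclast list as a whole was less low, at 0.638 (0.606 to 0.672), with 3 of 6 measured genes called lower and 0 higher. Within the tissue settings it was not lower, at 1.05 in fat-rich, 1.12 in muscle-rich and 1.37 in skin-rich spots. In spots rich in none of them it was 0.607. The neutrophil list was at 0.296 (0.241 to 0.360), with S100a8 at 0.230 and S100a9 at 0.209. Genes of tendon and fascia, of meninges and of periosteum had ratios of 0.408, 0.514 and 0.569. In fat-rich, muscle-rich and skin-rich spots the meninges list lay near 1, at 1.03, 0.969 and 1.04. The tendon and fascia list stood at 0.659, 0.734 and 0.733 there, and the periosteum list at 0.851, 0.686 and 0.602. Choroid plexus genes had a ratio of 0.0740, and 0 of the 120 choroid plexus spots were among the mast-rich spots. Ttr, the most abundant of them, is so highly made there that 90.5% of its UMIs came from those 120 spots, and its median per spot was 613 CPM in the mast-rich and 675 in the remaining spots.

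**Figure D3:**
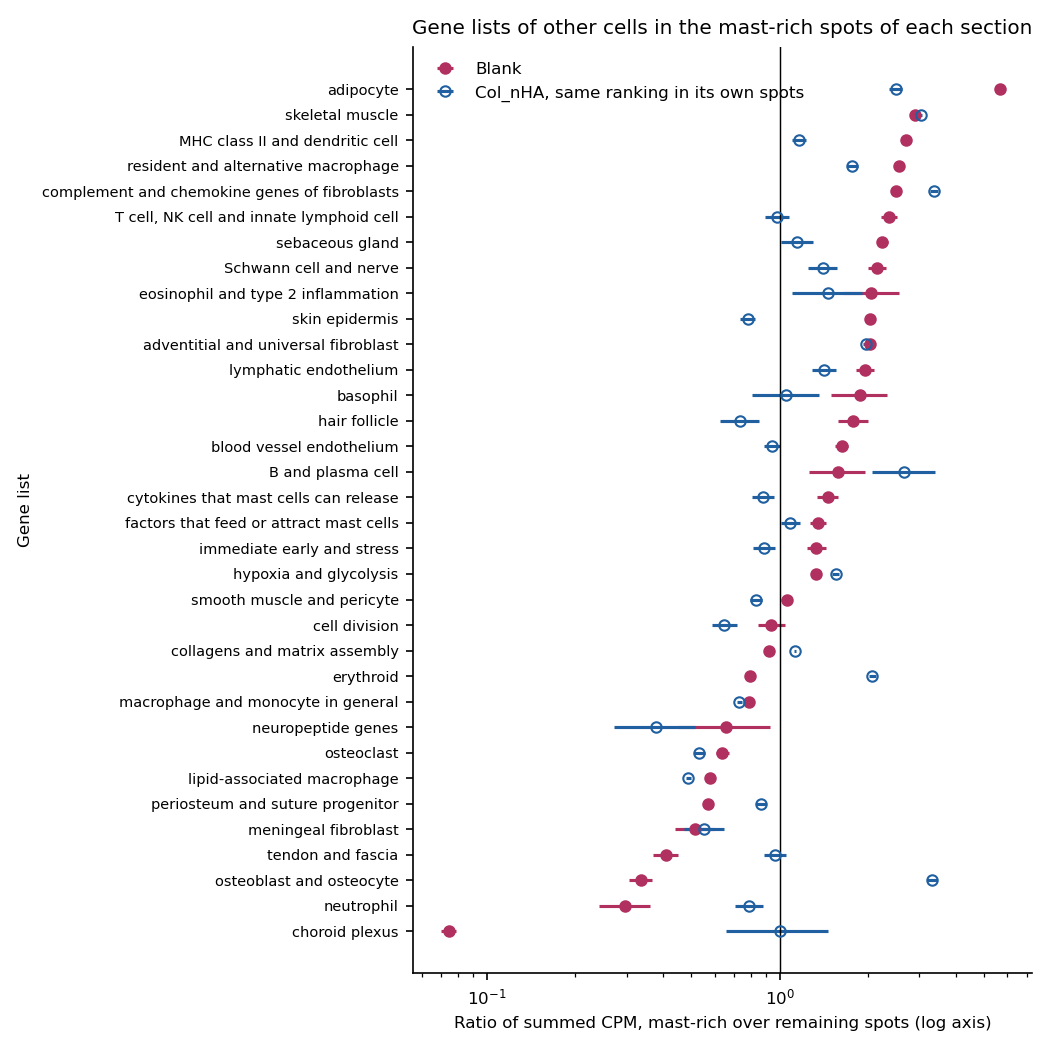
Ratio of the summed CPM of each gene list between mast-rich and remaining spots (log axis), in the Blank section (filled) and in the Col_nHA section (open). Bars are exact 95% counting intervals and many are smaller than the point. Adipocyte genes stand highest in Blank at 5.67. The osteoblast list lies at 0.335 in Blank and 3.32 in Col_nHA. In the chosen Col_nHA spots, 1520 of its 2437 UMIs were Bglap and 579 were Bglap2.

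To describe the tissue in which the mast cell transcripts lay, spots were sorted by fat, muscle and skin genes, each at the 90th percentile of the remaining spots. Of the 120 mast-rich spots, 62 were rich in fat genes, 37 in muscle genes and 46 in skin genes, with overlaps. Only 18 (15.0%) were rich in none, against 70.6% of the remaining spots. Over all kept Blank spots, the 4 ranking genes stood at 636 CPM in spots rich in fat alone, 330 in muscle alone, 287 in skin alone and 37.1 in spots rich in none. Mast-rich spots made up 30.2% of the spots rich in fat alone and 1.18% of those rich in none.

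Within these settings most of the 35 lists had ratios nearer to 1 than over all spots, which held for 28 lists in fat-rich, 32 in muscle-rich and 30 in skin-rich spots. Lists of fat, muscle and skin are among the 35, and the spots were sorted on such genes. Part of this count was thus set by the sorting, and why the other lists moved was not tested. Among fat-rich spots, 62 mast-rich against 213 remaining, the resident macrophage list had a ratio of 1.43 and the MHC class II list one of 1.12. The T and NK cell list, most of whose UMIs over all mast-rich spots were Thy1, had a ratio of 1.44. The lipid-associated macrophage list lay further from 1 there, at 0.486 (0.464 to 0.509). Even in these spots, adipocyte genes had a ratio of 1.59, so that setting did not even out the amount of fat. The genes furthest lower among fat-rich spots were Mmp12, a macrophage elastase, at 0.142 (0.100 to 0.196), Spp1 at 0.155 (0.131 to 0.182) and Gpnmb, a glycoprotein of lipid-laden macrophages, at 0.271 (0.216 to 0.336). In skin-rich spots, 46 against 399, Mmp12 had a ratio of 0.189 (0.118 to 0.287), and the cornified envelope gene Flg one of 0.319 (0.229 to 0.435), with 38.1% of its UMIs in 1 spot. In muscle-rich spots, 37 against 213, Cd209a had a ratio of 4.0 (2.45 to 6.44) and Myog, a factor of forming muscle fibres, one of 0.414 (0.284 to 0.586). The lymphatic list stood at 0.866 in fat-rich, 1.02 in muscle-rich and 1.29 in skin-rich spots, and the nerve list at 1.39, 1.15 and 1.69. Without the 1 muscle-rich spot that held 23.2% of its UMIs there, the nerve list stood at 0.891 (0.779 to 1.02). These settings and their genes were chosen after the data were seen.

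**Figure D4:**
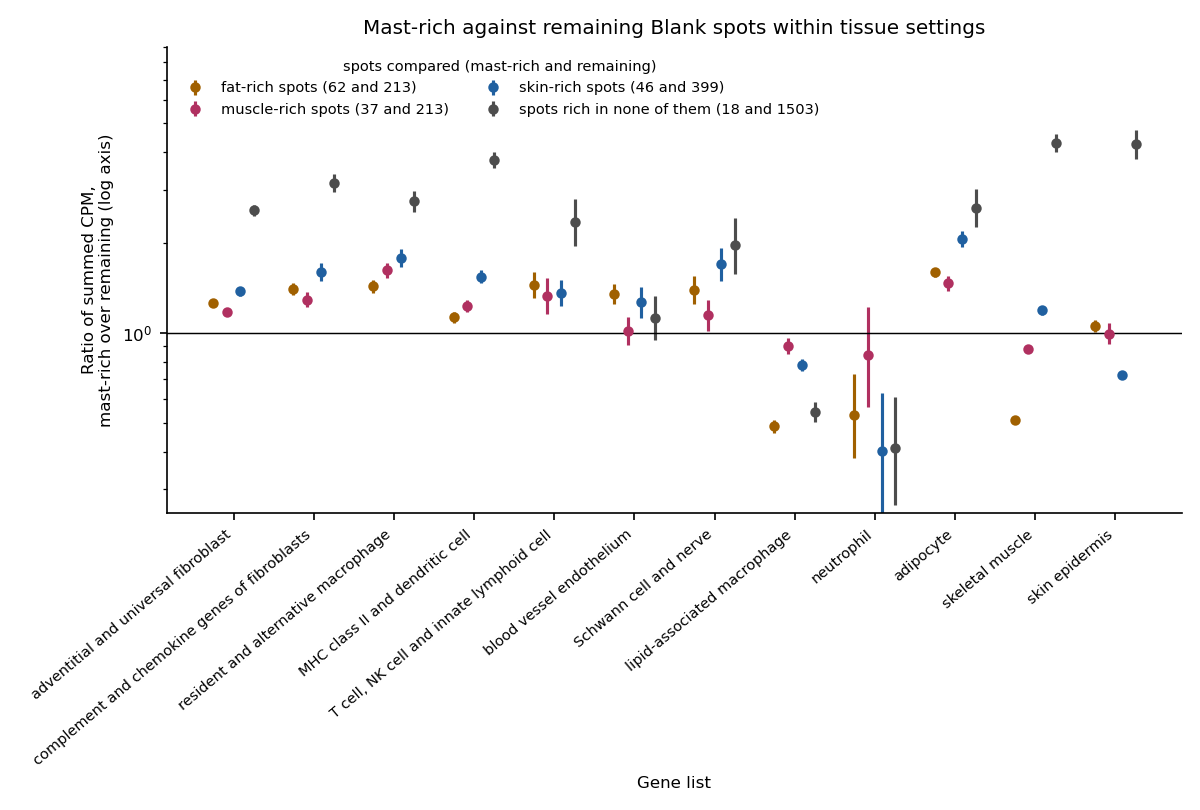
Ratio of the summed CPM of 12 gene lists between mast-rich and remaining Blank spots (log axis), within spots rich in fat, muscle or skin genes and within spots rich in none of them. Bars are exact 95% counting intervals, and the numbers of spots are in the legend. In fat-rich spots the resident macrophage list lies at 1.43, and in spots rich in none it lies at 2.75.

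In the 18 mast-rich spots outside fat, muscle and skin, set against 1503 remaining spots, 16 of the 35 lists lay nearer to 1 than over all spots and 19 did not. MHC class II genes had a ratio of 3.78, complement and chemokine genes of fibroblasts 3.16, resident macrophage genes 2.75 and adventitial fibroblast genes 2.56. The lipid-associated macrophage list stood at 0.544. Osteoblast genes lay near 1, with a list ratio of 0.916 (0.806 to 1.04), Bglap at 0.988 (0.837 to 1.16) and Ibsp at 0.987 (0.625 to 1.49). However, 1 of the 18 spots held 64.3% of the UMIs of that list, and without it the ratio was 0.356 (0.286 to 0.438). Muscle and epidermis genes still had ratios of 4.30 and 4.27 there, so these 18 spots were not free of them. Without the 1 spot that held the most UMIs of the list, these ratios were 3.59 and 2.04. For epidermis genes that spot held 56.4% of the UMIs. With the top spot of each list left out, MHC class II genes stood at 3.02 and complement and chemokine genes at 2.90. Resident macrophage genes then stood at 2.59 and adventitial fibroblast genes at 2.38. Of 7540 genes measured, 861 (11.4%) were called higher and 543 lower. In these 18 spots 1 UMI stood for 4.82 CPM, so 20 CPM was reached on few molecules. These counts are therefore less certain than those over all 120 spots. Of the genes called higher over all 120 spots, 326 were measured here, and 269 of those were among the 861. The 18 spots are part of the 120, so the 2 sets of calls share data.

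Along the ranking these lists changed across the limit of the choice as well. In ranks 1 to 40, 41 to 80 and 81 to 120 the adipocyte list stood at 4923, 3669 and 4610 CPM, then at 3316 in ranks 121 to 240, 2146 in ranks 241 to 480, 1026 in the later spots with a UMI and 420 in the 1380 spots with none. The resident macrophage list went from 3842 CPM in ranks 1 to 40 to 1021 in the spots with none. Mrgprb1, which the ranking did not use, went from 39.5 CPM in ranks 1 to 40 to 0.837 CPM in the spots with none. Lipid-associated macrophage genes ran the other way, from 3299 to 6528 CPM.

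**Figure D5:**
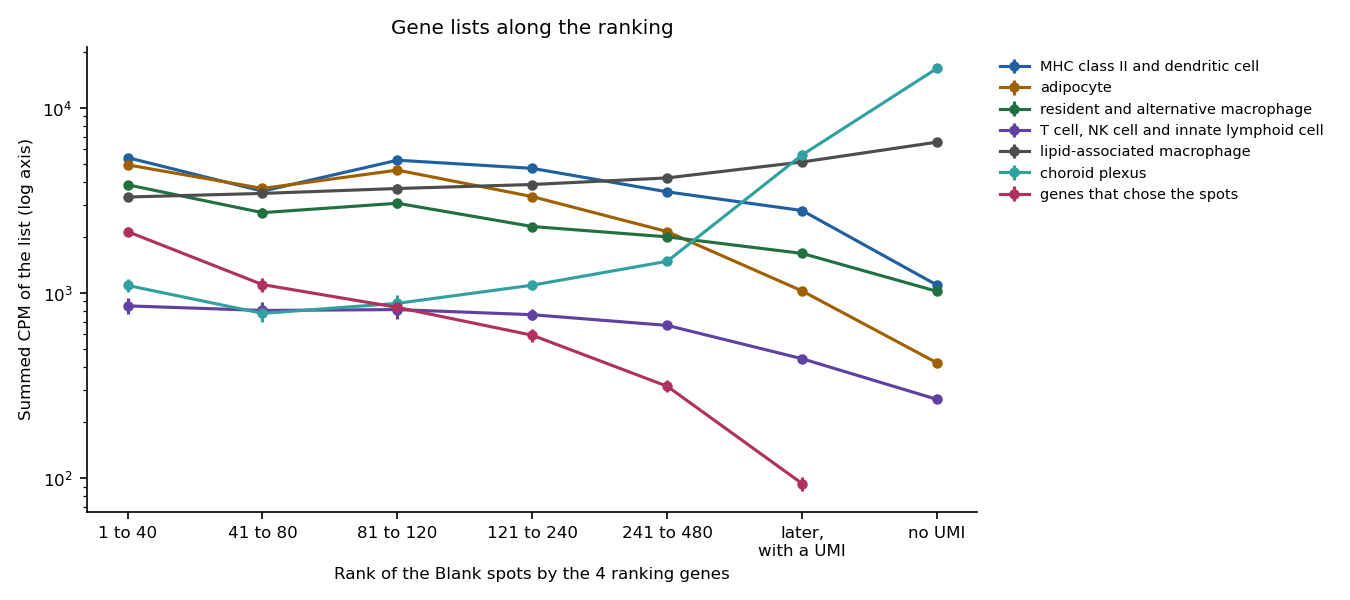
Summed CPM of 7 gene lists (log axis) in bins of Blank spots ordered by the 4 ranking genes, down to the spots without a UMI of them. Bars are exact 95% counting intervals. The adipocyte list falls from 4923 CPM in ranks 1 to 40 to 420 CPM in spots without a UMI, while the lipid-associated macrophage list rises from 3299 to 6528 CPM.

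The Col_nHA section held far fewer transcripts of the 4 genes. Over all kept spots they stood at 124 CPM (3808 UMIs) in Blank and 13.2 CPM (529 UMIs) in Col_nHA, which is 9.42-fold lower (8.60 to 10.3) in these 2 libraries. As background, 2.61% of 7251 genes were at least 2-fold lower and 1.64% at least 2-fold higher in Col_nHA. Their mix also differed, since Mcpt4 made up 44.4% of the UMIs of the 4 genes in Blank (42.8 to 46.0) and 29.1% in Col_nHA (25.3 to 33.2), and Cma1 34.0% (32.5 to 35.5) and 43.1% (38.8 to 47.4). The sections also differed in fat, skin and muscle. The Blank section held 938 CPM of adipocyte genes and 2737 CPM of epidermis genes and the Col_nHA section 522 and 1192, while skeletal muscle genes ran the other way, at 6222 CPM in Blank and 14675 in Col_nHA. The part of these in the difference was not tested.

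The same ranking in Col_nHA, with that section's own minimum of 4688 UMIs, took 120 of 2471 spots, but these rested on few molecules. Of them 46 held 1 UMI of the 4 genes, 29 held 2 and 45 held 3 or more, and their median depth was 8190 UMIs against 14162 in the remaining spots. All 4992 barcodes are shared by both sections, as the array positions carry the same set, and 4 barcodes were chosen in both. Of 7186 genes measured there, 306 (4.26%) were called higher and 121 (1.68%) lower. Of the 547 genes higher in Blank, 311 were measured in Col_nHA and 170 were higher there too, which is 54.7% of those measured and 55.6% of the 306, while 2 were lower. Among 6857 genes measured in both sections, 3.63% were called higher in Col_nHA.

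Genes of fat, muscle, complement and resident macrophages lay higher in both sections. In Col_nHA, Cfd had a ratio of 23.7 (20.4 to 27.5), Adipoq of 20.6 (13.9 to 30.4), C4b of 4.83 (4.46 to 5.23), Clec10a of 4.22 (3.21 to 5.47) and Ccl8 of 2.66 (2.48 to 2.84). The skeletal muscle list stood at 3.04 there and 2.91 in Blank, and the lipid-associated macrophage list at 0.487 and 0.579. Other lists parted between the sections. MHC class II genes stood at 1.17 in Col_nHA and 2.70 in Blank, the T and NK cell list at 0.981 and 2.36, and epidermis genes at 0.779 and 2.04. In the mast-rich Blank spots most UMIs of the T and NK cell list were Thy1, so its values are not those of lymphocytes alone. No test of these differences was possible with 1 section each.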

How the data were processed

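The data are 2 spatial libraries, Blank and Col_nHA, 1 per group. The deposited matrices hold raw UMI counts for 31053 genes and 4992 barcodes each. Per the submitters' processing notes, the authors used Space Ranger and mm10, whose version the sources used here do not state, and the file headers name Cell Ranger 4. No tissue filter, image or spot position was used from the authors. The Blank file held 34868368 UMIs and the Col_nHA file 45137685. The members and gene lists were chosen with earlier results of these data known.

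The UMI minimum of Blank was given, and an Otsu threshold on log10 totals with 256 bins gave the same value and that of Col_nHA. The mast-rich spots held 1354587 UMIs (3675 to 34139 per spot) and the remaining spots 29351262, with median mitochondrial shares of 2.87% and 4.14%. UMIs were summed per set and scaled to CPM. Intervals are conditional binomial for ratios, Poisson for CPM and Clopper-Pearson for shares. No test was run, since spots are not replicates. Where 1 set had 0 UMIs, a floor of 3 counts over the set was used. Shares of spots were taken after thinning to 2000 UMIs. Doublets were not called, as a spot can hold several cells. Of duplicated symbols the first entry was used.

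Named genes were, at 50 CPM or more, those with the 12 highest and the 12 lowest ratios, without ranking, mitochondrial, ribosomal protein, haemoglobin and unnamed genes, every member with a UMI of the mast cell, niche and basophil lists, and from each other list the most abundant member and that with the largest log2 ratio. Other genes named here were chosen from the lists, or within tissue settings, after their values were seen. There were 40 lists with 396 genes. Some list members are counted with their list but not reported here by name. Scripts were tested on simulated data. TMM factors came from edgeR 4.0.16 in R 4.3.3. All else was computed in Python 3.11.15 (pandas 2.3.3, scipy 1.17.1, numpy 2.4.6) and drawn with matplotlib 3.10.9. Sequences and positions are from RefSeq tables on GRCm38.p6. Alternatives were the number of spots, the minimum, the ranking, split UMIs, scaling, spot weights, CPM minimums and comparison spots.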

Additional observations from a re-analysis of the deposited data

Results flagged for a closer look

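Barcodes below the UMI minimum, which the main comparisons did not use, also held UMIs of the 4 ranking genes. The 2743 Blank barcodes below the minimum held 328 such UMIs, or 78.8 CPM (70.5 to 87.8), where a count of 0 would allow 0.721 CPM. Of these barcodes, 94 passed the lowest score of the 120 mast-rich spots, 61 of them on 1 UMI and 8 on 3 or more.

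The summed osteoblast list went opposite ways in the 2 sections, though not each of its genes did, and the difference was not tested. The list had a ratio of 0.335 in the mast-rich spots of Blank and 3.32 in those of Col_nHA. Bglap2 stood at 0.297 in Blank and 4.83 in Col_nHA, and Bglap at 0.322 and 5.97. These 2 genes made up most of the list in the chosen Col_nHA spots, with 1520 UMIs of Bglap and 579 of Bglap2 among 2437. In Col_nHA 1 spot held 42.0% of the Bglap UMIs of the chosen spots, and the ratio was 3.52 without it. Ibsp, another gene of bone-forming cells, had a ratio of 0.851 (0.732 to 0.984) in Col_nHA. Alpl and Sp7, also on the list, had ratios of 1.27 (1.02 to 1.57) and 1.44 (0.923 to 2.15) there.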

How the results depend on the processing

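The count of genes higher in the mast-rich spots, 547 as reported, was 363 with TMM scaling, 292 at a minimum of 50 CPM, 2171 with no minimum, 269 where the interval also had to pass 2-fold, 312 against remaining spots of like depth and 861 without fat, muscle and skin spots. The count lower, 186 as reported, was 282, 107, 801, 70 and 543 under the same settings except like depth, and 311 at 10 CPM. The share of calls that were higher was 74.6%, and 56.3% with TMM, which moved the median log2 ratio of all genes from 0.16 to -0.04. The count of mast cell genes outside the ranking, 2 as reported, was 7 with 0.5 times as many spots, 1 when ranked on summed UMIs, 4 with UMIs split at random for ranking and measuring, 4 where mitochondrial, ribosomal protein and haemoglobin genes were left out of the total, 9 at 10 CPM, 1 at 50 CPM, 18 with no minimum, 1 with the interval past 2-fold and 9 without fat, muscle and skin spots. The count higher in both sections, 170 as reported, was 88 with the mean of per-spot CPM, 100 at 50 CPM, 624 with no minimum, 102 with the interval past 2-fold and 96 at like depth. The ratio of the 4 genes, Col_nHA over Blank, was 0.106, and 0.118 with 0.5 times the UMI minimum, 0.118 with per-spot means and 0.129 over every barcode. Of 112 values of these results under alternatives, 83 stayed within 1.5 times the count or within the counting interval. Most of these values are counts, which have no direction to change. The ratio of the 4 genes, Col_nHA over Blank, stayed below 1 under each alternative. The cause of the moves in these values was not tested, apart from the number of genes measured under each minimum. Leaving out fat, muscle and skin spots was chosen after seeing the data. It left 18 mast-rich spots, in which 1 UMI stood for 4.82 CPM, so its counts rest on few molecules. No paired analysis was possible because each group holds 1 section. Of the 42 mast cell genes, 26 stayed below 20 CPM and could not be called.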
